A study of Mus musculus with 18 samples.

Results

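Intestinal adenomas of ApcMin/+ mice differ in how much connective tissue RNA their libraries hold, and the 5 tumours with the most were compared with the 5 with the least. The tumours were chosen by their own RNA: 15 of the 18 tumours of the study were ranked by the mean log2(RPKM + 1) of 4 genes, Col1a1, Col1a2, Col3a1 and Dcn, and the 5 highest were called stroma-rich, the 5 lowest stroma-poor and the 5 between them middle. RPKM scales the reads of a gene by its length and by the size of the library. All tumours came from male C57BL/6 mice that carry the ApcMin/+ mutation, which starts adenomas when the remaining copy of Apc is lost. They differed in Macrod2, a gene for an enzyme that takes ADP-ribose off proteins: 6 tumours were from Macrod2-/- mice (hom), 6 from Macrod2-/+ mice (het) and 6 from Macrod2+/+ mice (wt), with the numbers naming mice within a genotype. Each library is 1 bulk tumour, so epithelium and stroma were sequenced together. Tumours wt 1, wt 2 and het 4 were left out by the rule. The labels place het 4 in the small intestine and the other 17 tumours in the large intestine. Gata4, a transcription factor of the proximal intestine, had 50.3, 52.9 and 49.0 RPKM in these 3 tumours, against 0.0830 to 14.0 RPKM in the 15 that were ranked. The labels give no finer position within the large intestine, so "distal" for the ranked tumours rests on the choice of columns, and Gata4 was above 10 RPKM in 5 of them: hom 3, hom 6, het 6, het 3 and hom 4.

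The stroma of an adenoma is the tissue between its epithelial glands. Fibroblasts there secrete collagens, which are trimmed outside the cell, assembled into fibrils and cross-linked by lysyl oxidases, while decorin and biglycan bind the fibril surface and elastin and fibrillin form stretchable fibres. The same space holds blood vessels, smooth muscle, macrophages, mast cells and lymphocytes, and in bulk RNA fewer cells of a type and less RNA per cell cannot be told apart.

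The stroma-rich tumours were hom 6, hom 1, hom 4, het 1 and wt 6, in falling order of score (5.16, 4.89, 4.80, 4.74 and 4.70). The stroma-poor tumours were het 6, wt 4, hom 3, het 3 and wt 5 (4.12, 4.06, 4.04, 3.85 and 3.64). Values of the sides are given in these orders throughout. The middle tumours were het 5, hom 5, het 2, wt 3 and hom 2, with scores of 4.65, 4.59, 4.59, 4.53 and 4.51. At the upper edge wt 6 (4.70) and het 5 (4.65) lay close together, whereas the lower edge was wider, with 4.12 in het 6 and 4.51 in hom 2. The tumours left out scored 4.29 (wt 1), 3.91 (wt 2) and 4.16 (het 4). By genotype the stroma-rich side held 3 hom, 1 het and 1 wt tumour, the middle held 2 hom, 2 het and 1 wt tumour, and the stroma-poor side held 1 hom, 2 het and 2 wt tumours.

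Total counts ran from 17233021 to 20857918 in stroma-rich libraries, from 13971917 to 18878901 in middle libraries and from 13529204 to 18887269 in stroma-poor libraries, with 16750 to 17154, 16515 to 17129 and 16207 to 16875 genes seen. In wt 3, a middle tumour, the ribosomal RNA precursor Rn45s made up 27.0% of the library, with a Wilson 95% interval of 26.97 to 27.01% that covers counting error alone, against 0.118 to 0.725% in the other 14. Macrod2 set the hom tumours apart among the 15, with 0 to 0.0803 RPKM in hom, 0.320 to 0.690 RPKM in het and 0.581 to 0.794 RPKM in wt tumours. Het and wt tumours overlapped, as het 6 (0.690 RPKM) lay above wt 3 (0.581 RPKM) and wt 5 (0.639 RPKM). The epithelial marker Epcam, a surface adhesion protein, stood at 1191 to 1773 RPKM in stroma-rich and 1291 to 1779 RPKM in stroma-poor tumours. E-cadherin, from Cdh1, stood at 293 to 395 RPKM in stroma-rich and 269 to 382 RPKM in stroma-poor tumours, and both genes overlapped between the sides.

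The regions upstream of 5 genes are shown as letters, as examples of the starts of matrix and class II genes: a pair of the genes that defined the ranking, and 3 genes of antigen presentation. Of these 3, H2-DMb1 differed at least 2-fold without overlap, whereas H2-Aa and H2-Eb1 overlapped between the sides. They are the 250 bases before the gene start in RefSeq (build GRCm38.p6), written 5′ to 3′ on the gene's strand, with matches to CCAAT or its reverse complement ATTGG and to TATAAA or its reverse complement TTTATA in capitals. These are the letters of the CCAAT box and of a form of the TATA box. The regions are chr6:4505368-4505617 on the plus strand for Col1a2, chr1:45311288-45311537 (plus) for Col3a1, chr17:34152941-34153190 (plus) for H2-DMb1, chr17:34287824-34288073 (minus) for H2-Aa and chr17:34305617-34305866 (plus) for H2-Eb1.
Col1a2: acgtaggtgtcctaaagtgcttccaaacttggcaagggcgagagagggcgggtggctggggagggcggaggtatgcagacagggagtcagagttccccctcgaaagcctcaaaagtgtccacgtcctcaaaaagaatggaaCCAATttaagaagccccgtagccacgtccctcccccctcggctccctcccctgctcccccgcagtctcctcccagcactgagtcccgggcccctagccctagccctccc
Col3a1: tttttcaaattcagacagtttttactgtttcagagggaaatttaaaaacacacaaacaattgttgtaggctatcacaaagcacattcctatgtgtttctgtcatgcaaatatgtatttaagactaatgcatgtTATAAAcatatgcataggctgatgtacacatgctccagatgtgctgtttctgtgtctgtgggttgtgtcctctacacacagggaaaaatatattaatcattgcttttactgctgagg
H2-DMb1: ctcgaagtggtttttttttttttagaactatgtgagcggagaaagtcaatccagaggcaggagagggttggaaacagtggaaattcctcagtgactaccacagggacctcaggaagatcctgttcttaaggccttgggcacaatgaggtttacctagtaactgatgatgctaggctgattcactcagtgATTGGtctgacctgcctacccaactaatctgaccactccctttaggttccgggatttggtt
H2-Aa: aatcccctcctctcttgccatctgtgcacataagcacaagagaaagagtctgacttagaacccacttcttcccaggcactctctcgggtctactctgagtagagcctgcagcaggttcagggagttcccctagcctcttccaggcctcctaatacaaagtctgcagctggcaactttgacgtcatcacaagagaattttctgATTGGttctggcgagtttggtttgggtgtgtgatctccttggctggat
H2-Eb1: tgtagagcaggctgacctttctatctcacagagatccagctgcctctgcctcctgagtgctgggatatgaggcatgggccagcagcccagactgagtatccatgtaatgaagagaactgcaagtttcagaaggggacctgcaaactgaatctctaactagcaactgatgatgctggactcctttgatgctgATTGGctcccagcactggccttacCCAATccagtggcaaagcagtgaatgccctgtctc
CCAAT in either strand stood in 34.5% of 27025 RefSeq promoter windows of the same length, and TATAAA in either strand in 13% of them. Col1a2 held CCAAT, whose first base lay 109 bases before the start, and Col3a1 held TATAAA at 117 bases before it. All 3 antigen presentation genes held ATTGG, at 61 bases (H2-DMb1), 48 bases (H2-Aa) and 59 bases (H2-Eb1) before the start, and H2-Eb1 also held CCAAT at 35 bases. In mouse and human class II genes an inverted CCAAT is known as the core of the Y box, which the factor NF-Y binds. A match of letters is a description of the window and not evidence of binding in these tumours. The 5 genes were picked by hand, and other named genes also had a window. Their matches are therefore not a share to set against that of all windows.

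The 4 ranking genes fix the order of the tumours, so their values are a description. Col1a1 and Col1a2 encode the chains of type I collagen, the main fibril of connective tissue. Col1a1 (chromosome 11, 94936224 to 94953042, mm10) had 30.2, 21.8, 24.6, 21.5 and 20.0 RPKM in stroma-rich tumours, against 15.5, 13.4, 9.84, 11.6 and 8.14 RPKM in stroma-poor tumours. Col1a2 had 16.5, 15.6, 14.1, 13.3 and 17.4 RPKM in stroma-rich tumours, against 9.50, 9.58, 8.40, 6.98 and 5.77 RPKM in stroma-poor tumours. Its highest tumour was wt 6, the lowest of the stroma-rich side by score, so the order within a side was not that of every gene. Col3a1, the gene of type III collagen, had 39.6, 31.5, 26.2, 29.2 and 23.5 RPKM in stroma-rich tumours, against 14.9, 14.9, 19.3, 12.5 and 11.0 RPKM in stroma-poor tumours. Dcn, the gene of decorin, had 71.9, 60.9, 56.1, 51.2 and 46.8 RPKM in stroma-rich tumours, against 32.3, 30.8, 34.1, 30.7 and 31.7 RPKM in stroma-poor tumours. The stroma-poor tumours were nearly level for Dcn (31.9 ± 1.42 RPKM, SD, n = 5), whereas Col1a1 varied more among them (11.7 ± 2.88 RPKM). The ratio of side means was 2.02 for Col1a1, 1.91 for Col1a2, 2.07 for Col3a1 and 1.80 for Dcn. Across the 15 tumours the highest exceeded the lowest 3.71-fold for Col1a1 and 2.34-fold for Dcn.

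**Figure D1:**
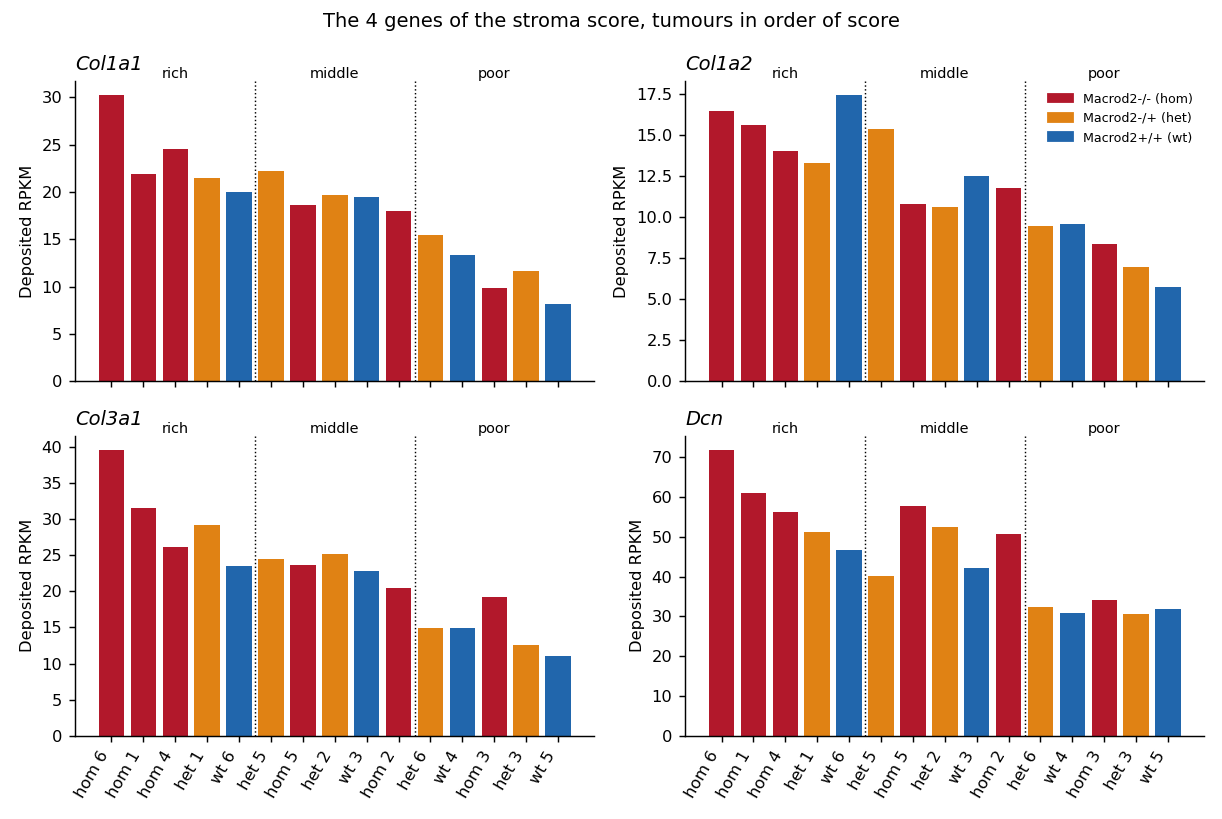
Deposited RPKM (vertical axes, from 0) of the 4 ranking genes in each of the 15 tumours, placed from the highest score on the left to the lowest on the right and coloured by Macrod2 genotype, with dotted lines between the sides. Col1a1 lies at 20.0 to 30.2 RPKM in stroma-rich and 8.14 to 15.5 RPKM in stroma-poor tumours, and the Dcn bars of the middle tumours overlap the stroma-rich ones.

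Whether the score went with Macrod2 genotype could be tested, since genotype is a label that the ranking did not use. The mean score was 4.66 ± 0.383 in hom tumours (SD, n = 6), 4.39 ± 0.386 in het tumours (n = 5) and 4.23 ± 0.477 in wt tumours (n = 4). The hom tumours spread from 4.04 to 5.16, the het tumours from 3.85 to 4.74 and the wt tumours from 3.64 to 4.70, so every pair of genotypes overlapped. The hom minus wt difference was 0.43 (exact two-sided permutation test, p = 0.152, Benjamini-Hochberg adjusted over the 3 pairs 0.386). Het minus wt was 0.16 (exact permutation p = 0.556, adjusted 0.556), and hom minus het was 0.27 (exact permutation p = 0.258, adjusted 0.386). The smallest p these designs allow is 0.00476, 0.00794 and 0.00216 in that order, so none of the pairs passed although each could have. These p-values measure the spread between tumours of separate mice.

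**Figure D2:**
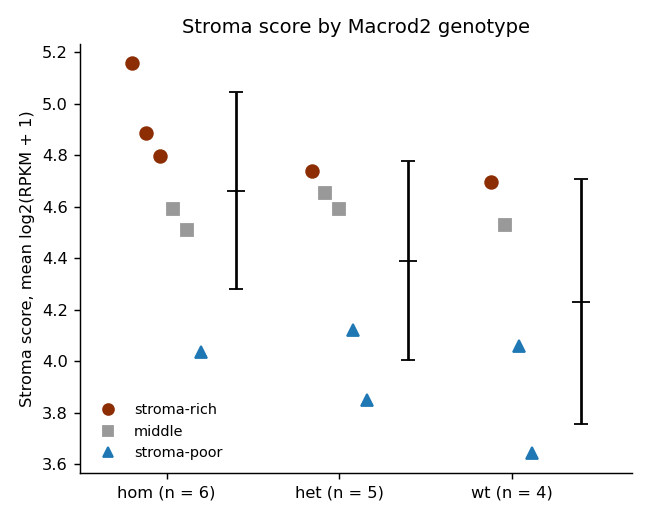
Stroma score of each tumour (vertical axis, mean log2(RPKM + 1) of the 4 ranking genes) by Macrod2 genotype, with circles for stroma-rich, squares for middle and triangles for stroma-poor tumours and the mean ± SD beside each group. The hom mean of 4.66 is the highest and the wt mean of 4.23 the lowest, and the points of all 3 genotypes overlap.

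Against all other genes the comparison was made on counts, with log2 fold changes from edgeR and overlap judged on CPM, counts scaled to the size of the library. Since the same libraries chose the tumours, no p-value is given for it. A gene was counted where it differed at least 2-fold and no stroma-poor tumour reached a stroma-rich one. Higher in stroma-rich tumours were 125 of 14388 genes (0.869%), and lower were 11 (0.0765%). By separation alone, whatever the fold, 217 were higher (1.51%) and 107 lower (0.744%). The count rests on single tumours: without hom 3, het 3 or wt 6 it was 265, 286 or 230 higher and 30, 31 or 24 lower, and without hom 4 it was 19 lower. Separation is easier to meet with 4 tumours on 1 side. Of the 125 higher genes, 118, 123 and 114 were also counted without these 3 tumours. The median log2 fold change over all genes was -0.0027, and 49.7% of the genes were above 0. The list counts below are to be read beside these shares of all genes. Of the 125, 23 lay in 1 of the 33 gene lists used to describe cell types and pathways. A mean of at least 1 RPKM was reached by 45 of the 125, against 12203 of all 14388 genes. Most of the higher genes counted thus had low levels, and the share of 0.869% rests largely on such genes.

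Fibrillar collagens beyond the ranking genes were higher in the stroma-rich tumours as a group. Of 11 measured fibrillar and associated collagens, all had a positive log2 fold change, with a median of 1.14, and 4 met the 2-fold rule: Col5a1, Col5a2, Col5a3 and Col6a3. Type V collagen, the product of the first 3, sits inside type I fibrils and limits their width. The count was 3 without wt 5, 5 without het 3 or het 6 and 6 without hom 3 or wt 6. The median was 0.87 without hom 6. Col5a1 had 4.40, 3.27, 3.05, 2.79 and 2.08 RPKM in stroma-rich tumours, against 1.54, 1.60, 1.23, 1.52 and 0.878 RPKM in stroma-poor tumours (log2 fold change 1.22). Col5a2, which lies next to Col3a1 on chromosome 1 (45374331 to 45503282, mm10), had 7.11, 5.74, 4.43, 5.04 and 3.87 RPKM in stroma-rich tumours, against 2.74, 2.46, 2.71, 2.58 and 1.56 RPKM in stroma-poor tumours (1.14). Both were highest in hom 6 and lowest in wt 5, the ends of the ranking. For Col5a3 and Col6a3 the sides only just separated, at 0.991 RPKM in wt 6 against 0.975 RPKM in het 6, and at 1.38 RPKM in wt 6 against 1.37 RPKM in hom 3. Col12a1, a collagen on fibril surfaces, separated without reaching 2-fold, with 2.80 to 4.35 RPKM in stroma-rich and 1.46 to 2.68 RPKM in stroma-poor tumours (log2 fold change 0.94). The type VI chains Col6a1 (1.05) and Col6a2 (1.24) reached 2-fold but overlapped, as wt 6 had 6.08 RPKM of Col6a1, against 8.71 RPKM in hom 3.

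Of 14 measured elastic fibre genes 5 met the rule (4 to 6 with 1 tumour left out, median log2 fold change 0.87): Eln, Fbn1, Fbln5, Mfap4 and Ltbp2. All of them had low levels. Elastin, from Eln, had 0.958, 0.596, 0.755, 0.627 and 1.24 RPKM in stroma-rich tumours, against 0.317, 0.193, 0.391, 0.176 and 0.144 RPKM in stroma-poor tumours (log2 fold change 1.78). The highest was wt 6 and the lowest wt 5, so tumours of 1 genotype stood at both ends. Fibrillin, from Fbn1, forms the microfibrils on which elastin is laid down. It had 0.637 ± 0.0949 RPKM in stroma-rich and 0.264 ± 0.0959 RPKM in stroma-poor tumours (SD, n = 5 each, 1.29). Fbln5, which links elastin to cells, differed by 1.17 on the log2 scale, Mfap4 by 1.11 and Ltbp2, a latent TGF-beta binding protein, by 1.02. Fbln1, by contrast, overlapped between the sides, with a log2 fold change of -0.09. Summed over the list, elastic fibre RNA overlapped, at 50.7 to 70.0 RPKM in stroma-rich and 41.3 to 64.7 RPKM in stroma-poor tumours. The medians of the sides were 54.7 and 57.5 RPKM in that order, so the summed RNA was not higher in stroma-rich tumours.

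Of the enzymes that process collagen, the lysyl oxidase genes Loxl1 and Loxl2 met the rule. Over the 17 measured genes, 12 were above 0 and 5 below, from -0.96 for Pcolce2 to 1.59 for Lox. Loxl1 had 0.810, 1.05, 1.01, 0.801 and 0.912 RPKM in stroma-rich tumours, against 0.410, 0.416, 0.372, 0.466 and 0.295 RPKM in stroma-poor tumours (log2 fold change 1.24). The sides were far apart, with 0.801 RPKM in the lowest stroma-rich and 0.466 RPKM in the highest stroma-poor tumour. Loxl2 had 9.59, 6.18, 7.07, 7.63 and 3.76 RPKM in stroma-rich tumours, against 3.47, 2.88, 3.74, 3.40 and 2.36 RPKM in stroma-poor tumours (1.13), with wt 6 barely above hom 3. Lox itself overlapped. Serpinh1, the collagen chaperone of the endoplasmic reticulum, stood at 0.18, the prolyl hydroxylase subunit P4ha1 at 0.03 and Ppib, a folding isomerase that all secreting cells use, at -0.35, each with overlapping sides. Over the list 2 of 17 met the rule (4 without hom 3), with a median of 0.23 (0.12 without het 6 and 0.39 without wt 4).

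Among proteoglycans and matrix glycoproteins 1 of 18 met the 2-fold rule, Ogn (log2 fold change 1.30), and Bgn, Tnc and Spon1 separated with smaller folds. The count was 4 without het 1 or wt 4 and 2 without hom 3, het 3 or het 6. Biglycan, from Bgn, had 17.6, 14.5, 18.8, 12.9 and 17.7 RPKM in stroma-rich tumours, against 8.72, 11.0, 8.86, 8.63 and 5.88 RPKM in stroma-poor tumours (0.94). Tenascin C, from Tnc, a glycoprotein of remodelling tissue, had 8.50 ± 0.913 RPKM in stroma-rich and 4.42 ± 1.5 RPKM in stroma-poor tumours (SD, n = 5 each, 0.96). Some abundant matrix genes overlapped. Fibronectin, from Fn1, had 29.1, 45.1, 34.1, 37.4 and 48.8 RPKM in stroma-rich tumours, against 38.7, 55.8, 22.2, 33.0 and 30.1 RPKM in stroma-poor tumours (0.13). Its highest value was in wt 4, a stroma-poor tumour. Periostin, from Postn, likewise overlapped (0.49), with 2.57 RPKM in stroma-rich het 1 and 5.63 RPKM in stroma-poor wt 4. The basement membrane list had a median of 0.49 over 17 genes and none past the rule, though without wt 6 there were 3, without het 1 there were 2 and without hom 3, het 6 or wt 5 there was 1. Col4a1 separated in CPM (0.96) but not in the deposited RPKM, where wt 6 had 13.6 and het 6 had 13.8.

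Of 20 measured genes for matrix breakdown and its inhibitors 17 had a positive log2 fold change, with a median of 0.54 (0.36 without het 6). The list score, which weighs each gene alike, did not overlap between the sides. Summed levels did overlap, at 1506 to 1934 RPKM in stroma-rich and 1503 to 2358 RPKM in stroma-poor tumours. Mmp2, a gelatinase made by fibroblasts, had 10.3, 7.81, 8.05, 6.72 and 6.34 RPKM in stroma-rich tumours, against 3.70, 4.80, 3.96, 5.61 and 2.69 RPKM in stroma-poor tumours (log2 fold change 0.93). Mmp10, a stromelysin, had 113, 109, 90.3, 78.2 and 80.8 RPKM in stroma-rich tumours, against 53.5, 67.5, 50.2, 62.9 and 43.1 RPKM in stroma-poor tumours (0.78). These 2 separated by side without reaching 2-fold, and none of the 20 met the full rule (2 without hom 3, het 3 or wt 6, and 1 without het 1). Mmp7, the protease of intestinal epithelial cells, was the most abundant named here, at 600 to 1028 RPKM in stroma-rich and 645 to 1606 RPKM in stroma-poor tumours (-0.35). The protease inhibitor gene Timp1 also stood below 0 (-0.45), with overlapping tumours, and these were 2 of the 3 genes of the list below 0.

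The fibroblast markers were then read as a check of the name stroma-rich. Of 39 measured markers 35 had a positive log2 fold change, with a median of 0.84, and the list score, a mean of centred log2 CPM that weighs each marker alike, did not overlap between the sides. The summed level of the same markers did overlap, at 522 to 574 RPKM in stroma-rich and 480 to 561 RPKM in stroma-poor tumours. Its most abundant member was Cd81, a membrane protein of many cell types, with 140 to 246 RPKM in stroma-rich and 165 to 325 RPKM in stroma-poor tumours (-0.41). Thy1, a surface glycoprotein of fibroblasts, had 2.24, 2.19, 2.45, 2.18 and 1.88 RPKM in stroma-rich tumours, against 1.35, 0.968, 0.954, 0.929 and 0.882 RPKM in stroma-poor tumours (1.12). Tcf21, a transcription factor of mesenchymal precursors, had 3.37, 1.72, 2.09, 2.05 and 1.24 RPKM in stroma-rich tumours, against 1.12, 0.774, 0.915, 0.770 and 0.935 RPKM in stroma-poor tumours (1.23). Thy1 and Tcf21 were the 2 markers that met the rule. This count was 10 without wt 6, 4 without hom 3, het 1, het 3, het 6 or wt 4, and 1 without hom 6. Pdgfra, the receptor that marks subepithelial fibroblasts, had 11.6, 5.25, 5.20, 5.99 and 2.18 RPKM in stroma-rich tumours, against 1.41, 1.89, 3.79, 2.50 and 3.28 RPKM in stroma-poor tumours. It overlapped because wt 6 was low, and wt 6 was also the lowest stroma-rich tumour for Pdgfrb, with 2.36 RPKM against 2.42 RPKM in stroma-poor hom 3. Fap and Rspo3, a protease of activated fibroblasts and a Wnt-enhancing ligand, were too low to test, at 0 to 0.303 and 0.0634 to 0.517 RPKM over the 15 tumours.

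Smooth muscle and vessel markers had smaller medians. For smooth muscle and pericytes the median was 0.29 over 20 genes, and the list score overlapped between the sides. Acta2, the smooth muscle actin gene, had 17.1, 18.6, 17.9, 13.8 and 18.4 RPKM in stroma-rich tumours, against 14.0, 13.1, 10.1, 12.0 and 19.1 RPKM in stroma-poor tumours (log2 fold change 0.35). The highest value belonged to wt 5, the tumour with the lowest stroma score. The pericyte genes Kcnj8 and Abcc9, which encode the parts of 1 potassium channel, separated by side. Kcnj8 had 5.81, 5.54, 4.67, 4.61 and 5.07 RPKM in stroma-rich tumours, against 2.87, 2.84, 3.13, 3.07 and 2.90 RPKM in stroma-poor tumours (0.81). Abcc9 differed by 0.96. Endothelial markers had a median of 0.65 over 22 genes with none past the rule (2 without hom 3, het 6 or wt 6, and 1 without het 3), and the median was 0.40 without hom 6. Pecam1, an adhesion protein of endothelium, had 8.82 RPKM in hom 6 and 2.20 to 4.36 RPKM in the other stroma-rich tumours, against 2.36 to 4.44 RPKM in stroma-poor tumours. Enteric glia and neuron markers had a median of 0.28 over 10 genes, mesothelium and fat markers 0.26 over 7, and of the 6 red blood cell genes 3 were at 0 in all 15 tumours and 2 could be tested (0.87).

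**Figure D3:**
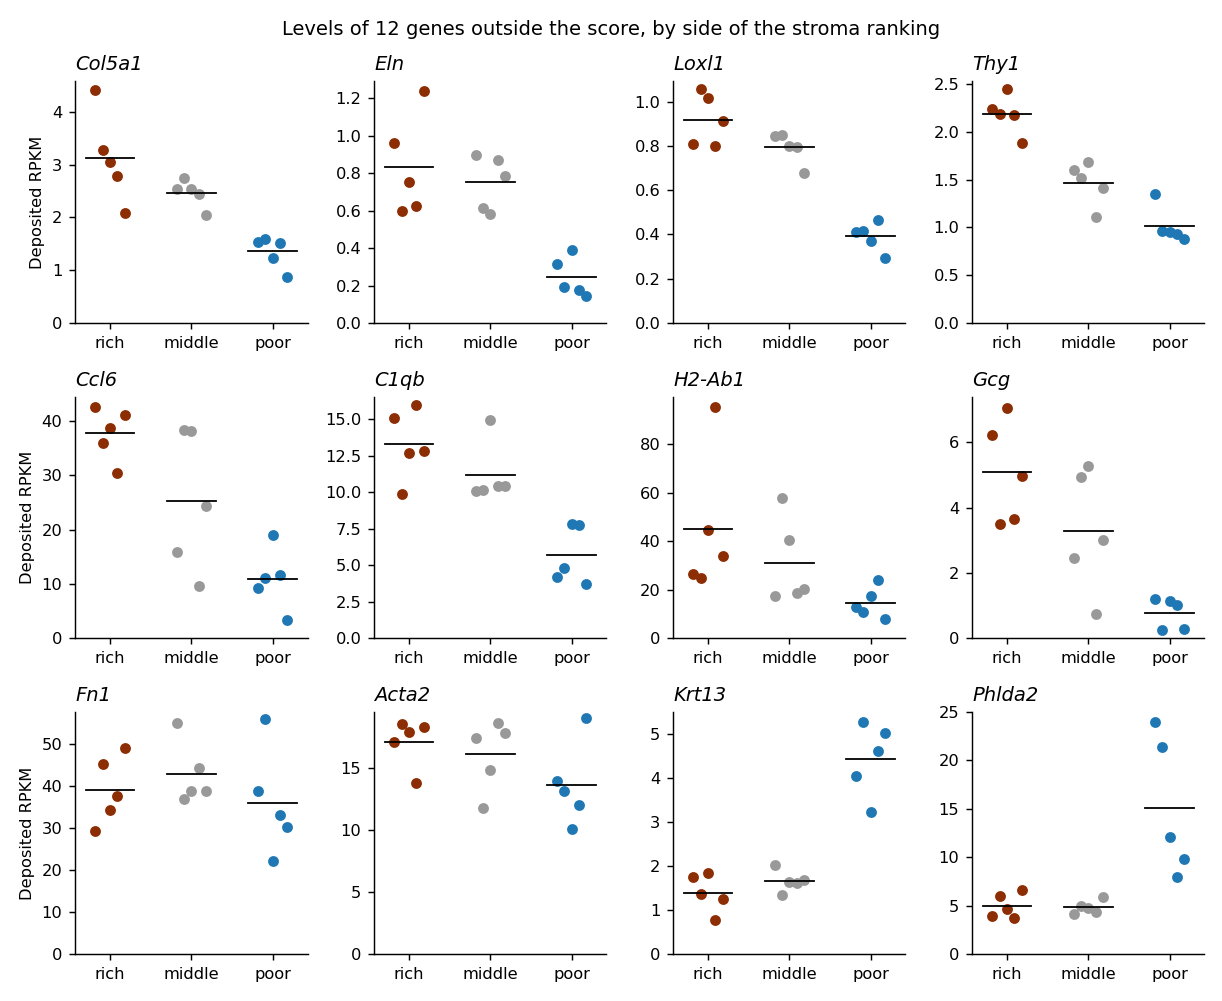
Deposited RPKM (vertical axes, from 0) of 12 genes outside the ranking in the 5 stroma-rich, 5 middle and 5 stroma-poor tumours, each point 1 tumour and each line the mean of its side. Loxl1, Thy1 and C1qb separate the outer sides, Fn1 and Acta2 overlap, and Krt13 and Phlda2 lie higher in stroma-poor tumours.

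Macrophage genes were higher on the same side as the matrix genes. Of 16 measured macrophage and monocyte markers 14 had a positive log2 fold change, with a median of 1.0. The list score did not overlap between the sides. Itgam, Csf1r and C1qb met the rule (6 of 16 did without hom 1 or without hom 3, and 2 without het 6 or without wt 5). C1qb, a chain of the complement protein C1q, had 15.1, 9.86, 12.7, 16.0 and 12.8 RPKM in stroma-rich tumours, against 4.19, 4.81, 7.85, 7.80 and 3.76 RPKM in stroma-poor tumours (1.24). Csf1r, the receptor for the macrophage growth factor, had 3.99, 2.64, 2.52, 2.90 and 2.31 RPKM in stroma-rich tumours, against 1.07, 1.06, 1.4, 2.19 and 1.06 RPKM in stroma-poor tumours (1.09). Both were low in het 6, wt 4 and wt 5 and nearer the stroma-rich tumours in het 3. In hom 3 only C1qb lay nearer the stroma-rich tumours. Outside the list were the myeloid genes Ccl6 (log2 fold change 1.81), Mpeg1 (1.43) and Fcgr4 (1.39). They were among the 15 largest of the separated genes with a mean of at least 1 RPKM, predicted genes left out. Ccl6, a mouse chemokine of myeloid cells, had 42.5, 36.0, 38.6, 30.3 and 41.1 RPKM in stroma-rich tumours, against 9.22, 11.2, 19.0, 11.7 and 3.39 RPKM in stroma-poor tumours. In the middle it ran from 9.57 to 38.4 RPKM, covering most of the range. Spp1, the osteopontin gene, did not separate (-0.33), nor did Cd68 (-0.09). Summed over the list, macrophage markers came to 97.0 to 128 RPKM in stroma-rich and 70.5 to 90.3 RPKM in stroma-poor tumours. The part of macrophages in the matrix differences was not tested.

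Dendritic cell and MHC class II genes, whose products present peptides to helper T cells, had a median log2 fold change of 1.59 (1.11 without het 1), over 9 genes that were all positive. The list score separated the sides, yet single genes spread widely. Summed levels overlapped, at 95.9 to 477 RPKM in stroma-rich and 40.1 to 104 RPKM in stroma-poor tumours. H2-Ab1, which encodes the beta chain of a class II molecule, had 26.6, 24.9, 44.6, 95.3 and 34.1 RPKM in stroma-rich tumours, against 13.0, 10.8, 17.4, 24.3 and 8.11 RPKM in stroma-poor tumours (log2 fold change 1.63). H2-DMb1, which lies outside the list and helps load peptides onto class II molecules, had 5.37, 3.69, 5.88, 15.7 and 5.05 RPKM in stroma-rich tumours, against 1.42, 1.48, 2.72, 2.99 and 1.49 RPKM in stroma-poor tumours (1.83). The top tumour was het 1 in both, and the gap between the sides was narrow for H2-Ab1, 24.9 RPKM in hom 1 against 24.3 RPKM in het 3. H2-Aa (1.61), H2-Eb1 (1.59), the invariant chain gene Cd74 (1.82) and Ciita (1.86), the master activator of these genes, had like folds but overlapped. For H2-Aa the overlap was hom 1 at 19.5 RPKM with het 3 at 21.6 RPKM. H2-Ab1 alone of the 9 listed genes met the rule, and 6 did without het 3 and 2 without hom 1, hom 3 or wt 6. H2-DMb1 has a close copy, H2-DMb2, and reads that the 2 share could be split by the counting. Interferon response genes had a median of 1.30, 26 of 27 above 0, but none met the rule (4 without hom 6 and 3 without het 3). The median was 0.78 without het 1. Ifit3, an antiviral protein gene, had 24.8 RPKM in het 1 and 2.07 to 5.80 RPKM in the other stroma-rich tumours, against 1.53 to 2.59 RPKM in stroma-poor tumours. Cd274, the gene of the checkpoint ligand PD-L1, had 0.842, 1.01, 1.81, 2.65 and 0.604 RPKM in stroma-rich tumours, against 0.282, 0.341, 0.504, 0.535 and 0.541 RPKM in stroma-poor tumours (1.66).

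T and NK cell markers summed to 18.8 to 33.5 RPKM in stroma-rich and 9.47 to 36.3 RPKM in stroma-poor tumours. B and plasma cell markers summed to 312 to 453 RPKM in stroma-rich and 272 to 461 RPKM in stroma-poor tumours, most of it from Sdc1 and Xbp1, which epithelial cells also express. Of 13 measured T and NK cell markers Cd3e and Cxcr6 met the rule (4 did without hom 3 or without wt 6), and the list had a median of 1.15. Cd3e, a chain of the T cell receptor complex, had 0.426, 0.360, 0.944, 0.421 and 0.432 RPKM in stroma-rich tumours, against 0.159, 0, 0.288, 0.348 and 0.0380 RPKM in stroma-poor tumours (1.59). Of 7 B and plasma cell markers Mzb1 (2.15) and Pou2af1 (1.59) met it, while the list's median was 0.04 (-0.18 without wt 6 and 0.27 without wt 4). Mzb1, a protein of antibody-secreting cells, had 1.18, 2.07, 2.35, 1.28 and 1.93 RPKM in stroma-rich tumours, against 0.189, 0, 0.522, 1.10 and 0.121 RPKM in stroma-poor tumours. Wt 4 was at 0 for both Cd3e and Mzb1. Neutrophil markers had a median of 0.55 over 9 genes with overlapping scores. Ptprc, the pan-leukocyte gene, reached 1.14 with overlap between wt 6 (0.776 RPKM) and het 3 (1.08 RPKM).

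Mast cell genes ran the other way. All 12 measured mast cell and eosinophil markers had a negative log2 fold change, with a median of -2.58, although none separated the sides. Mcpt1, a mucosal mast cell protease, had 7.99, 119, 108, 14.6 and 12.1 RPKM in stroma-rich tumours, against 183, 219, 81.4, 844 and 315 RPKM in stroma-poor tumours (-2.65). Cpa3, the mast cell carboxypeptidase, had 0.176, 5.91, 5.16, 0.659 and 0.465 RPKM in stroma-rich tumours, against 7.66, 6.73, 3.50, 42.2 and 15.5 RPKM in stroma-poor tumours (-2.60). In both genes hom 1 and hom 4 reached above hom 3, the lowest stroma-poor tumour, and het 3 was the highest. Without hom 3, 7 of the 12 met the rule, without hom 4 there were 2, and without hom 1 or het 6 there was 1. Summed over the list the levels were 25.8 to 233 RPKM in stroma-rich and 170 to 1678 RPKM in stroma-poor tumours. Kit, which stem cells and pacemaker cells also use, differed little (-0.17).

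**Figure D4:**
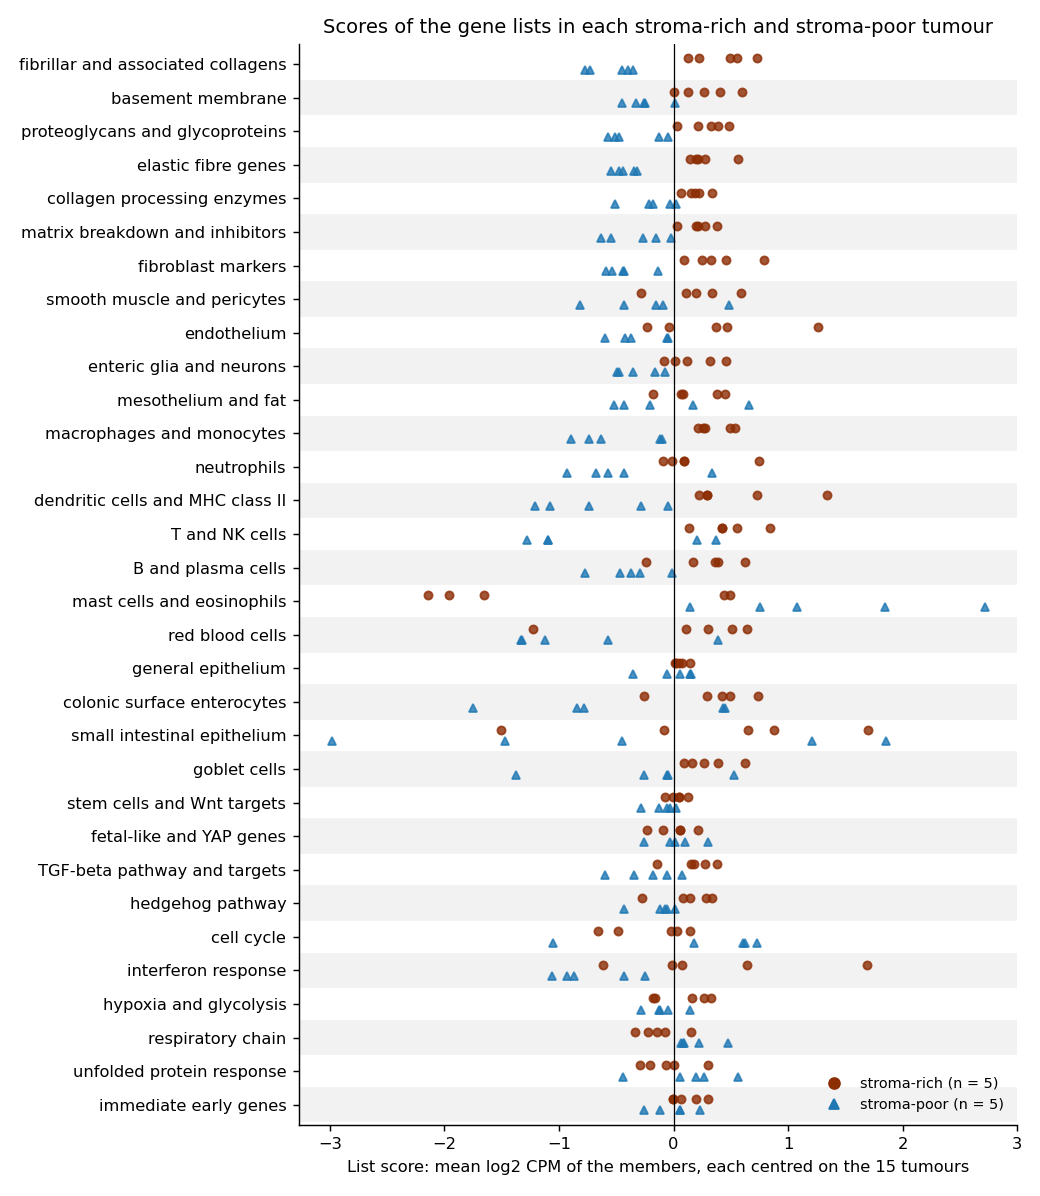
Score of each gene list (horizontal axis, mean log2 CPM of its tested members, each gene centred on the 15 tumours) in the 5 stroma-rich tumours (circles) and the 5 stroma-poor tumours (triangles). Collagen, elastic fibre, fibroblast and macrophage scores separate the sides. Mast cell scores are lower in 3 of the stroma-rich tumours than in any stroma-poor tumour, and general epithelium scores lie within 0.36 of 0.

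General epithelium had a median of 0.03 over 19 genes and stem cell and Wnt target genes 0.07 over 26. Goblet cell genes had a median of 0.42 over 13 (0.14 without wt 5 and 0.17 without wt 6), and colonic enterocyte genes 0.38 over 20 (0.75 without het 3). The small intestinal epithelium list had a median of 0.10 over 23 genes, but its score ran from -1.5 in wt 6 to 1.70 in hom 6 among stroma-rich tumours and from -2.98 in wt 4 to 1.85 in het 3 among stroma-poor tumours. Its sign and size rest on single tumours: the median was -0.44 without hom 6 and 0.90 without het 3. The largest differences among separated genes with a mean of at least 1 RPKM included genes of epithelial cells. Gcg, whose product gives the gut hormone GLP-1 in L cells, had the largest fold change of the genes named, 2.69. It had 6.22, 3.49, 7.05, 3.65 and 4.96 RPKM in stroma-rich tumours, against 1.20, 0.268, 1.14, 1.02 and 0.300 RPKM in stroma-poor tumours. Serpina1b, an alpha-1-antitrypsin gene, had 2.69, 3.72, 3.46, 4.46 and 5.30 RPKM in stroma-rich tumours, against 0.320, 0.256, 1.24, 1.17 and 0.652 RPKM in stroma-poor tumours (2.43). It is a member of a family of near-identical copies, so its reads may be shared with them. Ccl28, a chemokine of mucosal epithelium, had 1.83 ± 0.261 RPKM in stroma-rich and 0.620 ± 0.439 RPKM in stroma-poor tumours (SD, n = 5 each, 1.58). The water channel gene Aqp4 (1.25) was the colonic enterocyte gene that met the rule. That list held 2 such genes without het 3, and 0 with genotype as a term in the fit. Pirt (1.38), a regulator of sensory channels, the neuropeptide gene Gal (1.35) and Mgll (1.27), a lipase that splits monoacylglycerols, complete the 15 largest of that choice. Gal overlapped in the deposited RPKM, with 1.46 in hom 6 and 1.49 in wt 5.

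Few genes were lower in stroma-rich tumours, and none of the 11 lay in a list. Of these, 5 had a mean of at least 1 RPKM, as had 12203 of the 14388 genes: Krt13, Phlda2, Ifitm5, Uts2 and Tnnt2. Krt13, a keratin of stratified epithelium, had 1.75, 1.36, 1.84, 0.768 and 1.24 RPKM in stroma-rich tumours, against 4.04, 5.28, 3.24, 4.61 and 5.03 RPKM in stroma-poor tumours (log2 fold change -1.65). Phlda2, an imprinted growth-restraining gene of the placenta, had 3.88, 5.99, 4.60, 3.76 and 6.65 RPKM in stroma-rich tumours, against 24.0, 21.4, 12.1, 7.92 and 9.79 RPKM in stroma-poor tumours (-1.57). For both genes the middle tumours lay with the stroma-rich ones, at 1.35 to 2.03 RPKM and 4.11 to 5.89 RPKM. Uts2, the urotensin peptide gene, differed by -1.47, and Tnnt2, the cardiac troponin T gene, by -1.20. Ifitm5 (-1.48) and its neighbour Ifitm2 (-0.62) lie beside each other on chromosome 7 (140948958 to 140950243 and 140954837 to 140959686, mm10), and both were lower. Ifitm2, an interferon-inducible membrane protein gene, had 765, 663, 950, 831 and 869 RPKM in stroma-rich tumours, against 1031, 1513, 1447, 992 and 1377 RPKM in stroma-poor tumours. The other 9 of the 15 named genes had smaller folds, from -0.82 for Pam16 to -0.49 for Fau. They include Atp5l, a subunit of ATP synthase (-0.54), Psph, an enzyme of serine synthesis (-0.53), Sssca1 (-0.70), Them6 (-0.66), Zfp593 (-0.62), Fam69b (-0.53) and Tmem101 (-0.50). Pam16 and Tmem101 separated in CPM but overlapped in the deposited RPKM.

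Respiratory chain genes were lower by a little in every case. All 33 had a negative log2 fold change, with a median of -0.35, none reached 2-fold, and Ndufb8, Uqcrq, Atp5b and Atp5c1 separated the sides. Of all genes, 0.744% were lower by separation alone, and 49.7% had a log2 fold change above 0. The number that separated was 23 without wt 6, 8 without wt 5 and 6 without het 3, and the median was -0.22 without wt 4. Leaving out wt 6 also raised the lower count over all genes, from 11 to 24 by the 2-fold rule. Uqcrq, a subunit of complex III, had 310, 311, 341, 342 and 391 RPKM in stroma-rich tumours, against 439, 584, 477, 399 and 403 RPKM in stroma-poor tumours (-0.43). All 28 cell cycle genes were also below 0, with a median of -0.48, but the tumours overlapped for each of them. Without hom 3, 15 of the 28 separated, with a median of -0.69. Mki67, the proliferation marker, had 19.5, 22.9, 25.4, 15.7 and 30.0 RPKM in stroma-rich tumours, against 40.0, 40.6, 11.1, 26.9 and 41.6 RPKM in stroma-poor tumours (-0.48). The stroma-poor tumour hom 3 thus lay below all 5 stroma-rich ones. The unfolded protein response list had 19 of 23 genes below 0 (median -0.31) and overlapping scores. Of the signals that act on fibroblasts, TGF-beta pathway genes had a median of 0.17 over 25 and hedgehog genes 0.19 over 11. Of the 25 TGF-beta genes 20 were above 0 and 5 below, and the list score overlapped between the sides. The 2-fold rule was met by 1 of them (0 without het 1 or wt 5, 2 without hom 3), beside 0.869% of all genes. Within genotypes the TGF-beta score differed by 0.34 in hom, 0.29 in het and 0.24 in wt tumours. Tgfb1 itself, 1 of the 5 below 0, had 10.2 to 16.6 RPKM in stroma-rich and 13.4 to 14.8 RPKM in stroma-poor tumours (-0.17). Hypoxia and glycolysis genes had a median of 0.17 over 20, immediate early genes 0.14 over 19 and fetal-like and YAP genes -0.29 over 17.

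Since the sides differ in genotype mix, the list scores were also compared inside each genotype, with 3 stroma-rich and 1 stroma-poor hom tumour and with 1 stroma-rich and 2 stroma-poor tumours of het and of wt. These are differences of 1 to 3 tumours and have no test. The ranking genes differed by 1.0 on the log2 scale in hom, 0.81 in het and 0.90 in wt tumours. Fibrillar collagens differed by 1.23, 0.87 and 0.74 in the same order, elastic fibre genes by 0.69, 0.54 and 0.71 and fibroblast markers by 0.97, 0.38 and 0.81. Macrophage markers differed by 0.45, 0.86 and 1.09 and class II genes by 0.70, 1.74 and 1.44, so these lists leaned to the stroma-rich side in all 3 genotypes. Mast cell markers were below 0 in all 3, at -0.55 in hom, -3.39 in het and -3.42 in wt. In all, 19 of the 33 lists were above 0 in all 3 genotypes, 2 were below 0 in all 3 and 12 differed in sign between genotypes. The 19 include the list of the 4 ranking genes, which the choice of tumours itself put above 0. Among the 12 were cell cycle genes (0.89 in hom, -1.06 in het and -0.53 in wt), smooth muscle (1.16, -0.16 and 0.17), B and plasma cells (0.77, -0.09 and 1.20), goblet cells (0.33, -0.04 and 1.33), small intestinal epithelium (-0.13, -0.79 and 0.73) and the unfolded protein response (0.35, -0.53 and -0.01).

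**Figure D5:**
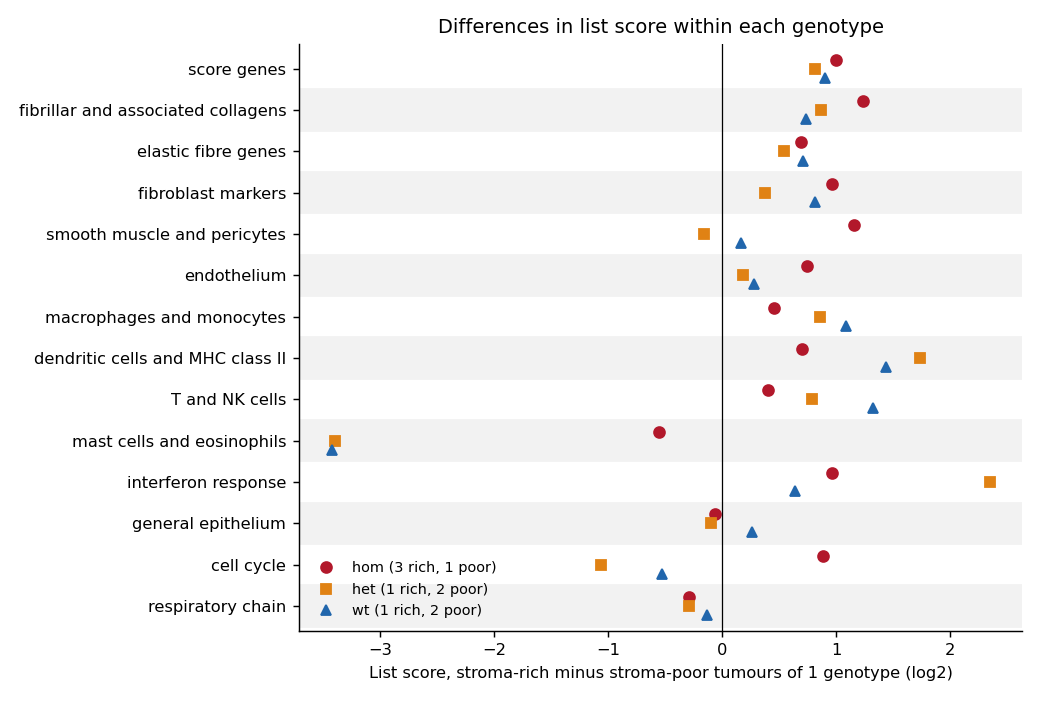
Difference in list score between stroma-rich and stroma-poor tumours of the same genotype (horizontal axis, log2), with circles for hom, squares for het and triangles for wt tumours. Collagen, elastic fibre, fibroblast, macrophage and class II points lie right of 0 in all 3 genotypes, mast cell points lie left of 0, and cell cycle points lie on both sides.

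The same genes were then tested by genotype, which the ranking did not use, in 1 edgeR fit of the 15 tumours. Hom against wt called 1 of 14392 genes at an adjusted p under 0.05 (0.00695%), het against wt 0 (0%) and hom against het 1 (0.00695%). The gene called was Macrod2 itself, at a log2 fold change of -4.34 against wt (SE 0.46, edgeR quasi-likelihood test, Benjamini-Hochberg adjusted p = 0.0015) and -3.68 against het (SE 0.45, adjusted p = 0.0083). No member of any list passed. At an unadjusted p under 0.05 edgeR gave 3535, 1055 and 415 genes, and for het against wt DESeq2 called 1 gene and limma-voom 0 after adjustment. Col1a1 was 0.43 higher in hom than in wt tumours on the log2 scale (SE 0.30, adjusted p = 0.36), Col3a1 0.57 (SE 0.29, adjusted p = 0.22) and Dcn 0.54 (SE 0.21, adjusted p = 0.15), all by the same edgeR fit. Without wt 3, the tumour rich in Rn45s, hom against wt called 1282 of 14561 genes (8.8%), and DESeq2 on all 15 called 782 of 14101 (5.55%). Without wt 3 the fibroblast markers held 3 higher and 1 lower of 39, fibrillar collagens 1 higher of 11, elastic fibre genes 1 higher and 1 lower of 14 and macrophage markers 2 higher and 1 lower of 16. Larger shares were called in other lists: 11 lower of 23 unfolded protein response genes, 10 higher of 23 small intestinal epithelium genes, 5 higher of 20 colonic enterocyte genes and both measured red blood cell genes higher. By DESeq2 on all 15 tumours these lists held 11 lower and 1 higher of 23, 4 higher of 23, 5 higher of 20 and 0 of 2. None of the 4 ranking genes was called in either.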

How the data were processed

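RNA of 18 adenomas was sequenced. Per the labels' protocols, DNA and RNA were taken from each tumour with an AllPrep kit and libraries made with a TruSeq Stranded Total RNA kit, while the labels' molecule field names polyA RNA. Per the submitters' processing notes, reads were trimmed with Trimmomatic, aligned with TopHat to mm10 and counted with featureCounts of Subread 1.4.5-p1; whether the counting used strand is not given in the sources used here. The authors deposited whole-number counts per gene and RPKM scaled by TMM factors. The deposited RPKM equalled count per length and total times 1 factor per library, within 5.65e-07 of the value, with factors of 0.921 to 1.28. No deposited libraries agreed within counting noise.

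The members and the gene lists were chosen with earlier results of these data known. Levels are deposited RPKM. Fold changes come from edgeR 4.0.16 (limma 3.58.1, R 4.3.3) on the deposited counts of the 15 ranked tumours in 3 sides, after filterByExpr and TMM. Overlap was judged on TMM-scaled CPM, without a p-value, since the same libraries chose the tumours. Genotype was tested with edgeR's quasi-likelihood test over all genes and, for the score, with exact permutation tests. The genes named are the 15 largest log2 fold changes in each direction among genes that do not overlap and have a mean of at least 1 RPKM, without predicted genes, then list members past the 2-fold rule or the largest in their list, and fixed markers. Other genes named as contrasts within a list were chosen after their values were seen. DESeq2 1.42.0, limma-voom, other scores, filters, folds and tumours left out were tried as alternatives. The fits were tested on simulated counts. Promoter windows come from a RefSeq table, which held 89 of the counted genes. Of 623 list genes 613 were in the table and 555 were tested.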

Additional observations from a re-analysis of the deposited data

Results flagged for a closer look

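Of 127 groups of 4 to 6 tumours examined, 7 held a tumour whose gap to its nearest neighbour exceeded Dixon's 95% critical value (0.71 of the range for 5 samples); chance flags about 1 in 20 groups. The ranking genes, whose values formed the sides, were not examined, and the single genes were themselves chosen for separating the sides. On the stroma-rich side, hom 4 had a neutrophil list score of 0.748, against -0.0926 to 0.0953 in the other 4. The red blood cell list score of wt 6 was -1.22, against 0.105 to 0.643, over 2 tested genes. Pirt stood at 3.60 log2 CPM in hom 6, against 1.94 to 2.41. On the stroma-poor side, wt 4 had a hedgehog list score of -0.436, against -0.114 to 0.0151, and 0.121 log2 CPM of Pirt, against 1.27 to 1.63. Gal was at -2.54 log2 CPM in hom 3, against -0.344 to 0.209. Them6 was at 3.98 log2 CPM in het 3, against 4.37 to 4.51.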

How the results depend on the processing

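Other scores chose nearly the same tumours: from CPM or with a pseudocount of 0.1 both sides held the same 5, and a score from 45 other fibroblast markers put hom 5 in place of het 1. The counts of higher genes moved to 264 with 4 a side, 367 with 3 a side, 217 by separation alone (an alternative chosen after seeing the data), 45 at a mean of at least 1 RPKM and 10 on log2(RPKM + 1), where low genes shrink. Leaving out 1 outer tumour gave 124 to 286. Lower genes moved to 20 with no filter, 22 with 4 a side, 27 with 3 a side, 18 at 1.5-fold, 107 by separation alone, 5 at 1 RPKM and 5 on log2(RPKM + 1), and leaving out 1 tumour gave 10 to 31. Leaving out 1 tumour also moved list medians: smooth muscle to 0.16 to 0.46, neutrophils to 0.28 to 0.88, enteric glia to 0.16 to 0.44, mesothelium and fat to 0.03 to 0.36, hedgehog to 0.11 to 0.49, TGF-beta to 0.10 to 0.23, hypoxia to 0.11 to 0.26, immediate early genes to -0.01 to 0.20, stem cells to -0.01 to 0.16, general epithelium to -0.04 to 0.04, red blood cells to 0.72 to 1.36, the unfolded protein response to -0.43 to -0.17 and fetal-like genes to -0.34 to -0.12. Over 53 genes and 19 alternatives none of the fold changes reversed, and 32 of 1007 moved by more than the spread of the tumours. All of the 32 were with 3 a side or on log2(RPKM + 1). These 53 were the ranking genes and genes chosen because their sides did not overlap. Their signs could therefore hardly reverse, and the lack of reversals is no test of the comparison. The het minus wt score reversed to -0.0383 without wt 5, in a range of -0.0383 to 0.313, and to -0.0827 with a replicate block. Leaving out 1 tumour gave hom minus wt 0.235 to 0.586 and hom minus het 0.137 to 0.398. Mouse numbers did not pair the tumours (12 same-number pairs, r from -0.349 to 0.431, 4 over 0.1), and the replicate block left 0 genes for hom against wt and 0 for hom against het. List members called without wt 3 and by DESeq2 were also counted after seeing the data. DESeq2 called 782 for hom against wt and 1 for het against wt. Without single tumours hom against wt called 1 to 1282 (1282 without wt 3, 4 without wt 6) and hom against het 0 to 1 (0 without hom 4). The cause was not tested. Depth limits the lowest genes: 0.0466 RPKM of Macrod2 in hom 1 was 5 counts.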
